A study of Rattus norvegicus with 3 samples.

Results

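Heat shock proteins and chaperones were followed through the rat pineal gland by night and by day and through a pool of other tissues. The members were taken by symbol: Hsp followed by a letter or digit, Dnaja, Dnajb or Dnajc followed by a digit, Cct followed by a digit, and Bag followed by a digit. The rule found 86 table entries and, after the 2 entries of Dnaja3 were summed, 85 genes of 16629 in the deposited table. The rule uses no measured value. The animals were adult Sprague-Dawley rats on a cycle of 14 h light and 10 h dark. The pineal gland was sampled in the middle of the night, 19 h after lights on (zeitgeber time 19), and in the middle of the day, at zeitgeber time 7. The remaining library, also from zeitgeber time 7, combined RNA in equal amounts from 15 tissues: adrenal gland, pituitary, heart, skeletal muscle, lung, liver, kidney and small intestine, together with retina, spinal cord and the brain regions cortex, hypothalamus, midbrain, hindbrain and cerebellum. Poly(A) RNA of each group was sequenced as 1 library. The number of animals behind a library is not stated in the labels, there are no replicates, and no test across samples was possible, so every comparison below is a description of 3 libraries.

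Chaperones bind unfolded or partly folded proteins and keep them from aggregating. Hsp70 proteins bind short hydrophobic stretches in a cycle driven by ATP, in which J-domain proteins (the DnaJ families) deliver the client and speed ATP hydrolysis, and Hsp110 and Bag proteins help release the nucleotide. Hsp90 acts later on kinases and steroid receptors, the CCT ring folds actin and tubulin, Hsp60 with Hsp10 folds proteins inside mitochondria, and small heat shock proteins hold unfolded clients without ATP. The inducible members are known targets of the heat shock factor Hsf1 in the cytosol and, for those of the endoplasmic reticulum (ER), of the unfolded protein response. The pineal gland makes melatonin at night, and tryptophan hydroxylase, which starts that synthesis, is in human cells a client of a J-domain protein.

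The levels are FPKM as computed by the authors, that is, sequenced fragments divided by transcript length in kb and by the size of the library. Ratios were taken as log2 of FPKM + 1 over FPKM + 1, in genes with at least 1 FPKM in at least 1 of the 2 libraries, a scale that understates the change of low genes, and a call means at least 2-fold on that scale. Folds named as FPKM folds carry no such addition. The labelled tissue carried its markers: the 10 pinealocyte markers summed to 10154 FPKM by night, 8112 by day and 371 in the mixed tissues, and 10 of 10 exceeded the mixed tissues at least 2-fold by day. The smallest steps between low values gave an estimated 5.29 fragments per kb at 1 FPKM by night, 8.74 by day and 9.73 in the mixed tissues, and the night estimate rests on 4 gene models. A transcript of 1 kb at 20 FPKM then carries 95% Poisson bounds of 16.4 to 24.2 FPKM by night, 17.1 to 23.2 by day and 17.3 to 23.0 in the mixed tissues. All bounds given for FPKM folds are for a 1 kb transcript and cover counting error only.

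The members made up 1.32% of all FPKM by night, 1.15% by day and 0.784% in the mixed tissues. Their sum was 2826 FPKM by night, 2412 by day and 1935 in the mixed tissues. At least 10 FPKM was reached by 45 members by night, 44 by day and 50 in the mixed tissues, and at least 100 FPKM by 7 members by night, 5 by day and 2 in the mixed tissues. The order of the leading genes differed between the libraries. By night the 5 highest members were Hspa5, Hsp90b1, Dnajc12, Hsph1 and Hspa4, which held 32.6% of the members' FPKM. By day they were Dnajc12, Hspb1, Hspa4, Hsp90b1 and Dnajb2, with 38.7%. In the mixed tissues they were Hspa5, Hsp90b1, Hspe1, Hspb6 and Cct5, with 26.3%.

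Of the 85 members, 20 were treated as uncertain. Cct8l1, Dnajb12, Dnajb7, Dnajb8, Dnajc5b, Dnajc5g and Hspb9 lay below 1 FPKM in all 3 libraries, and Dnajb8, Dnajc5b and Dnajc5g were listed at 0 in each. Another 11 members have 3 or more copies named as pseudogenes in the reference, so that reads may have been divided or dropped. Hspa8, the constitutive cytosolic Hsp70, has 33 such copies and was listed at 2.08 FPKM by night, 0.167 by day and 0.201 in the mixed tissues, a level that is uncertain for this reason. Hsp90ab1 has 23 copies, Hspd1 20, Hsp90aa1 16 and Cct6a 14. Hspa1a and Hspa1b, near-identical genes, overlap each other in the deposited table.

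By night, 9 of the 74 members compared exceeded their day level at least 2-fold (12.2%) and 1 was lower by as much (1.35%), whereas of 9826 genes compared in all 4.18% were higher and 2.11% lower. The 9 were Hspa1a, Hspa1b, Hspa8, Hspa5, Hsph1, Hsp90aa1, Dnaja1, Dnajb1 and Dnajb4, which all belong to the Hsp70, Hsp110, Hsp90, DnaJ A and DnaJ B families. The median log2 ratio over the 74 was 0.05, beside -0.11 over all genes compared. Hspa8 and Cct6b entered through their night values alone, so the 74 are not the full membership and the count gives no support by itself. Without the uncertain members, 4 of 61 were higher (6.56%) and 1 lower (1.64%), because Hspa1a, Hspa1b, Hspa8, Hsp90aa1 and Dnaja1 left the count, and the median was 0.01. At 1.5-fold, 11 of the 74 were higher and 4 lower, beside 8.18% and 11% of all genes. With a pseudocount of 5, Hspa8 (log2 0.45), Hsp90aa1 (0.67) and Dnajb4 (0.98) were no longer past 2-fold. In bulk samples, fewer cells of a type and less RNA per cell cannot be told apart.

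On the FPKM + 1 scale, the widest night to day ratios among the members belonged to the stress-inducible Hsp70 pair. Hspa1a (chr20:3955274-3957748 on rn4) was at 71.2 FPKM by night, 8.08 by day and 12.3 in the mixed tissues. Its log2 ratio of night over day was 2.99, rank 48 from the top of the 9826 genes, and its FPKM fold was 8.80, with bounds of 6.81 to 11.5. Hspa1b (chr20:3953956-3959552) was at 11.5 FPKM by night, 1.81 by day and 2.25 in the mixed tissues (log2 2.15). Because the gene models overlap, the sum of both is given as well. It may count shared reads repeatedly, since their handling is not given. The sum was 82.6 FPKM by night, 9.89 by day and 14.5 in the mixed tissues (log2 2.94 for night over day). The night library was thus the high one, and the day library lay below the mixed tissues.

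Dnajb1 and Hsph1, partners of Hsp70 in the cytosol, were called higher by night as well. Dnajb1, the Hsp40 that is induced together with Hsp70 on heat shock, was at 92.1 FPKM by night, 20.2 by day and 20.3 in the mixed tissues (chr19:26213739-26217480). Its log2 ratio was 2.14, rank 109, and its FPKM fold 4.57 (3.84 to 5.45), and by day it sat at the level of the mixed tissues. Hsph1, an Hsp110 that exchanges the nucleotide of Hsp70, was at 162 FPKM by night, 53.5 by day and 39.1 in the mixed tissues (chr12:5794645-5811453). The log2 ratio was 1.58 and the FPKM fold 3.02 (2.70 to 3.39). Hsph1 was above the mixed tissues by day too, by 0.44 on the log2 scale.

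Dnaja1, a farnesylated J-domain protein of the cytosol, was at 92.6 FPKM by night, 37.2 by day and 50.9 in the mixed tissues, with a log2 ratio of 1.29 and an FPKM fold of 2.49 (2.16 to 2.87). It has 4 named copies, so its level is uncertain. Dnajb4, a relative of Dnajb1, was at 64.1 FPKM by night, 30.1 by day and 19.5 in the mixed tissues (log2 1.07, FPKM fold 2.13 with bounds of 1.81 to 2.51). It was the called member nearest to the threshold, and its model lies on unplaced sequence of chromosome 2. Hsp90aa1, the inducible cytosolic Hsp90, was at 6.0 FPKM by night, 1.93 by day and 1.23 in the mixed tissues (log2 1.26, uncertain). Its constitutive counterpart Hsp90ab1 stood at 90.1 FPKM by night, 50.1 by day and 58.3 in the mixed tissues (log2 0.83, uncertain). Just outside the threshold lay Hspb11, which the reference names Ift25, a component of intraflagellar transport. It was at 22.5 FPKM by night, 11 by day and 8.39 in the mixed tissues (log2 0.97).

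**Figure D1:**
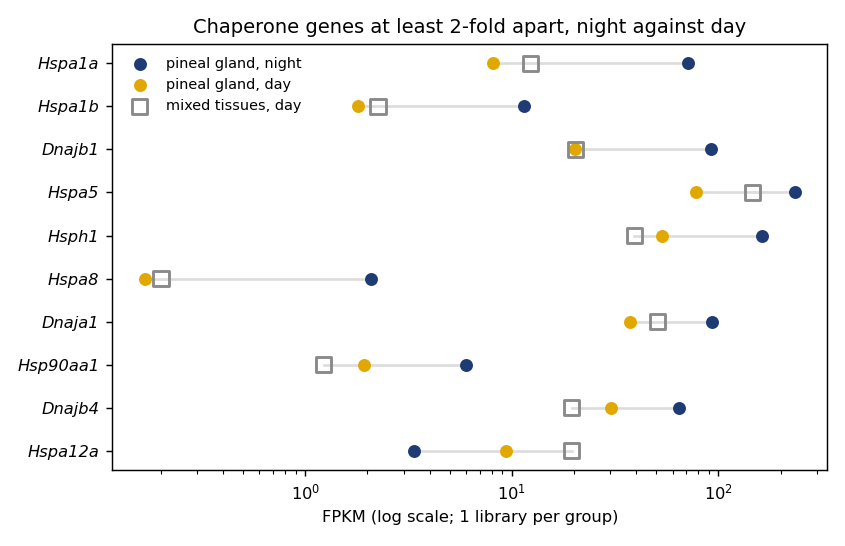
FPKM (log axis, 1 library per group) of the 10 members at least 2-fold apart between the pineal gland by night and by day; filled circles are the pineal libraries, open squares the mixed tissues. Night is the highest library for the first 9 genes and the lowest for Hspa12a, and the day and mixed-tissue points of Dnajb1 (20.2 and 20.3 FPKM) lie on each other.

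Among the 7 members assigned here to the ER, 1 was called higher by night. Hspa5, known as BiP, the Hsp70 of the ER, was at 234 FPKM by night, 77.8 by day and 147 in the mixed tissues (chr3:13783619-13788078). Its log2 ratio of night over day was 1.58 and its FPKM fold 3.01 (2.74 to 3.31). By night it had the highest listed level among the members, whereas Calr, an ER folding gene outside the membership, was at 267 FPKM. By day Hspa5 lay below the mixed tissues (log2 -0.90). Hsp90b1, or Grp94, the Hsp90 of the ER, was at 187 FPKM by night, 150.0 by day and 122 in the mixed tissues (log2 0.32 for night over day). The J-domain proteins of the ER lay closer to each other in the 2 pineal libraries. Dnajb9, which the unfolded protein response induces, was at 24 FPKM by night against 21.1 by day. Dnajb11, a partner of Hspa5, was at 19.5 FPKM by night against 15.8 by day. Dnajc3, an inhibitor of ER stress kinases, was at 11.4 FPKM by night against 10.8 by day, and Dnajc10, which reduces disulfide bonds, at 24.9 by night against 23.8 by day. The remaining one was Hspa13, at 14.1 FPKM by night against 11.7 by day. These ER members had 0 of 7 lower, all 7 ratios were above 0, and their median was 0.25. Over all genes compared, 3750 of 9826 ratios were above 0. Which members count as ER was chosen for this report, and other members may work there too, so the count depends on that choice.

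Other genes of ER folding, a list that holds no member, had 0 of 10 compared at least 2-fold higher or lower by night. Over all genes compared, 4.18% were higher and 2.11% lower. The median of the list was 0.10. Sdf2l1, an ER protein that associates with Hspa5, was at 8.68 FPKM by night against 4.59 by day (log2 0.79), and Manf, a secreted ER stress protein, at 32.5 by night and 22.7 by day (log2 0.50). In the other direction, Ero1lb was at 1.99 FPKM by night against 3.72 by day (log2 -0.66), and 3 of the 10 ratios were below 0. Calreticulin, Calr, was at 267 FPKM by night against 244 by day, and the calnexin gene Canx at 123 by night and 114 by day.

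Mitochondrial chaperones held no called member by night. Of the 7 members assigned to mitochondria, 0 were at least 2-fold higher or lower, and the median was 0.02. Over all genes compared, 4.18% were higher and 2.11% lower, so a count of 0 in 7 lies near these shares. Hspa9, the Hsp70 of mitochondria (mortalin), was at 40.6 FPKM by night, 27.5 by day and 31.7 in the mixed tissues (log2 0.54). Hspe1, or Hsp10, was at 41.8 FPKM by night, 33.3 by day and 87.7 in the mixed tissues. Its log2 ratio was 0.32 for night over day and -1.37 for day over mixed tissues. Its partner Hspd1, or Hsp60, was at 5.32 FPKM by night, 5.13 by day and 11.1 in the mixed tissues, a level that its 20 copies make uncertain. Both were lower in the gland than in the mixed tissues, Hspd1 by -0.98 on the log2 scale and therefore just short of 2-fold. The models of the 2 genes lie 289 bases apart on chromosome 9.

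Upstream sequences were searched for motifs because members that were high by night include textbook targets of Hsf1, which binds repeats of GAA and TTC, and of the ER stress factors. Windows from 250 bases before to 50 bases after the start were taken from RefSeq (build GRCr8) for 68 of the 85 members and for 19005 protein-coding genes in all. Each motif was searched on both strands. A heat shock element of 3 units was GAANNTTCNNGAA or TTCNNGAANNTTC, that of 2 units was GAANNTTC or TTCNNGAA (every 3-unit match also holds 2-unit matches), the ER stress response element was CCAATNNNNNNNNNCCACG or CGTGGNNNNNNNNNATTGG, and the cAMP response element was TGACGTCA. The first 4 sequences below belong to night-high members, 3 with heat shock elements and 1 with an ER stress response element, and the last is the stretch between Hspe1 and Hspd1, which were not called. They run 5′ to 3′ along the gene's strand and end at the base before the start, and capitals mark heat shock elements of 2 or 3 units, or in Hspa5 the ER stress response element. Hsph1 is chr12:10427118-10427367 (plus strand), Hspa8 chr8:50080264-50080513 (plus strand), Dnajb1 chr19:41431142-41431391 (minus strand), Hspa5 chr3:38452766-38453015 (plus strand) and Hspe1 chr9:64084077-64084326 (plus strand), all on GRCr8.
Hsph1: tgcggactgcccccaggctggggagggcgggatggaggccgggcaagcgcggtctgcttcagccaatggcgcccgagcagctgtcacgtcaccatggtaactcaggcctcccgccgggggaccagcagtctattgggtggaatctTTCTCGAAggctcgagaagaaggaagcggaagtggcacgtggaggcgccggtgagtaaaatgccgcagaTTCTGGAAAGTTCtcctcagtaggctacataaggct
Hspa8: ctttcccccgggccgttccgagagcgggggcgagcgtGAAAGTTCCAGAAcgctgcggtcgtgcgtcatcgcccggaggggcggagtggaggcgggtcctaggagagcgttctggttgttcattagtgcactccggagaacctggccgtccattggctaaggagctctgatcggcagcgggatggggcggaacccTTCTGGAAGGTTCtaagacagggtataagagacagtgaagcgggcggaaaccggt
Dnajb1: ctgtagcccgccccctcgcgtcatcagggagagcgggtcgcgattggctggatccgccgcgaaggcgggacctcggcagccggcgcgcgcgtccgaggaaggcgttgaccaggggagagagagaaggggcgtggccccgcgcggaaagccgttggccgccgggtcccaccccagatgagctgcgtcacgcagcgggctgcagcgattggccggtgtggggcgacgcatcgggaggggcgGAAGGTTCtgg
Hspa5: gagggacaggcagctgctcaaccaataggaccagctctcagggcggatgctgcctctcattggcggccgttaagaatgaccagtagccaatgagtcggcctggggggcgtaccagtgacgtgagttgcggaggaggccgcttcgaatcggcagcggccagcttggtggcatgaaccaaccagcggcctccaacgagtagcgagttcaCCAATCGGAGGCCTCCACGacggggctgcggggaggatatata
Hspe1: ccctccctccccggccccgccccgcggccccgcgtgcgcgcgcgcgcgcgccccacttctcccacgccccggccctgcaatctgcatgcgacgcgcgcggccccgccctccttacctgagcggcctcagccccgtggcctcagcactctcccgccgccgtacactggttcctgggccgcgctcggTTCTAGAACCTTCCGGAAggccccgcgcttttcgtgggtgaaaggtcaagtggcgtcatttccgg

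The 3-unit element was present in 0.542% of all promoter windows (103 of 19005) and in 6 of the 68 member windows, those of Hspa8, Hsph1, Dnaja1, Hspe1, Hspd1 and Cct4. Of the 9 night-high members, 6 had a window, and 3 of these 6 held the 3-unit element, against 3 of 62 windows of the other members, a count given with no test. Of the former 3, Hspa8 and Dnaja1 are uncertain members, and Hspa8 was compared through its night value alone. Only Hsph1 among them is not uncertain, so the contrast gives no support by itself. In Hsph1 the element lay from base -36 to -24 before the start. Hspa8 held 2, from -213 to -201 and from -55 to -43. In Dnaja1 it lay after the start, at bases 10 to 22. Hspe1 and Hspd1, which are transcribed away from each other, share 1 stretch of 18 bases (chr9:64084262-64084279) in which 2 matches overlap, and neither gene was called by night.

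The 2-unit element is common, in 14.4% of all windows, and was found in 21 of 68 member windows and in 4 of the 6 night-high ones. Dnajb1 held 2 of these, at -11 to -4 and at 18 to 25 after the start. The ER stress response element was in 18 of 19005 windows (0.0947%), 3 of which belong to members: Hspa5 at -43 to -25, Hsp90b1 with 2 matches, and Dnajc3. Of these 3, Hspa5 was called by night and Hsp90b1 and Dnajc3 were not. The cAMP response element was in 2.22% of all windows, 4 of 68 member windows and 0 of the 6. The window of Hspa1a held none of the 4 motifs, but its model spans 2475 bases in the deposited table and 4045 in the reference, so the window may not precede the same start. A match describes letters in a window and is neither a binding site nor a cause.

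**Figure D2:**
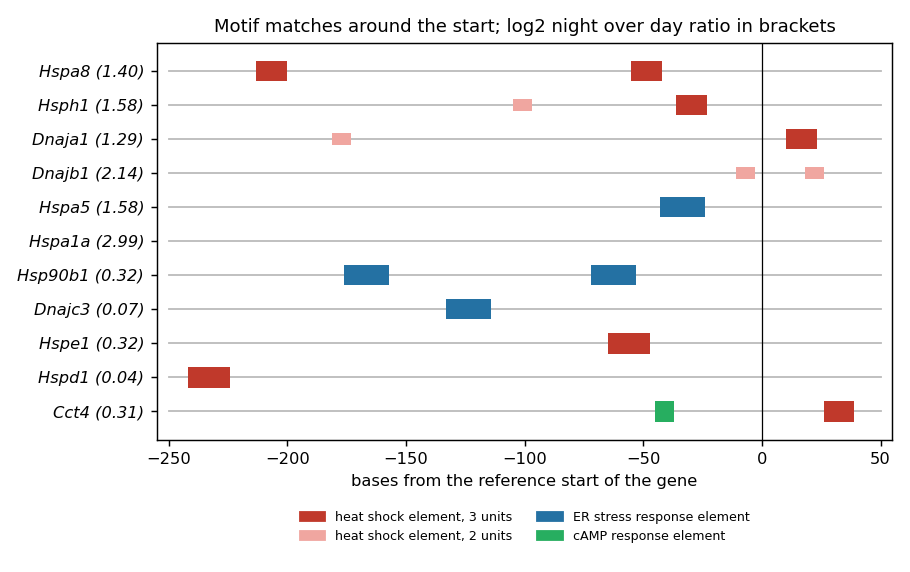
Motif matches in the windows of 11 members, drawn to scale in bases from the reference start of each gene, with the log2 ratio of night over day in brackets. Red blocks mark heat shock elements of 3 units, pink blocks those of 2 units outside them, blue blocks ER stress response elements and the green block a cAMP response element.

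Regulators and partners of the chaperones, taken from fixed lists of genes that are not members, were compared in the same way. Hsf1, the main factor of the heat shock response, was at 17.3 FPKM by night, 36.1 by day and 11.5 in the mixed tissues. Its log2 ratio was -1.02 for night over day and 1.57 for day over mixed tissues, so its transcript was lower in the library in which Hspa1a and Dnajb1 were high. Hsf2, another heat shock factor, was at 8.54 FPKM by night against 10.1 by day, and Hsbp1, which binds Hsf1, at 99.0 by night and 110.3 by day. Among 13 Hsp90 co-chaperones compared, 1 was called higher by night and 0 lower, with a median of 0.13. The 1 was Fkbp5, an immunophilin of steroid receptor complexes, at 74.8 FPKM by night, 20.6 by day and 5.92 in the mixed tissues (log2 1.81). Chordc1, Ptges3, Cacybp and Stip1 followed with log2 ratios of 0.60, 0.55, 0.50 and 0.39. Neither the 7 Hsp70 co-chaperones compared (median -0.15), nor the 10 genes of the list of Tcp1, prefoldin and tubulin cofactors (median -0.13), nor the 14 subunits of the proteasome core (median -0.05), nor 9 other stress genes (median -0.08) held a gene past 2-fold by night. Among the stress genes the polyubiquitin gene Ubb came nearest, at 23.3 FPKM by night against 12.2 by day (log2 0.88), while Hmox1, the haem oxygenase induced by oxidative stress, was at 3.89 by night against 5.52 by day.

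**Figure D3:**
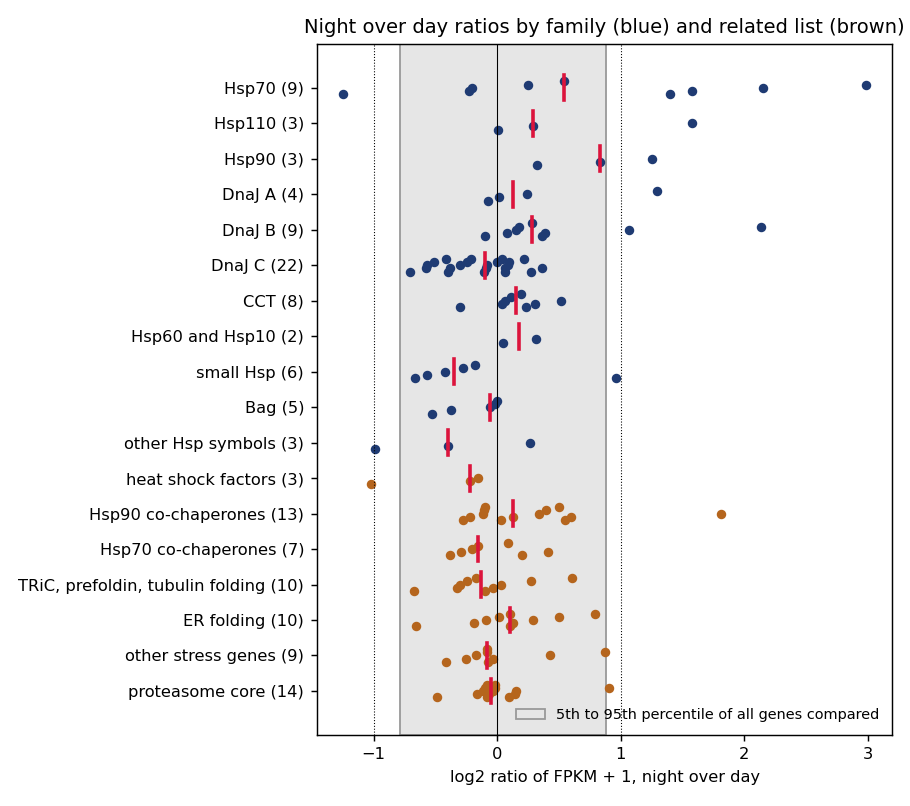
Log2 ratio of FPKM + 1, night over day, for the members of each family (blue) and for genes of the related lists (brown); each point is 1 gene, red bars are medians, brackets give the number compared, dotted lines mark 2-fold, and the grey band covers the 5th to 95th percentile of all genes (-0.79 to 0.88). Member points to the right of the band lie in the Hsp70, Hsp110, Hsp90, DnaJ A, DnaJ B and small Hsp rows, the last of these being Hspb11.

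The ratios of the CCT family stayed within 2-fold. Of 8 CCT members compared by night and by day, 0 were past 2-fold, and their ratios ran from -0.30 to 0.52. Their median was 0.15, beside -0.11 over all genes compared. Of the 8 ratios, 7 were above 0, beside 3750 of 9826 over all genes. Among the 7, Cct6b (1.24 FPKM by night, 0.904 by day) was compared through its night value alone. The ratio of Cct6b could therefore only lie above 0. Cct3, Cct7 and Cct8, also above 0, and Cct6a, below 0, are uncertain because of their named copies. The count of 7 gives no support by itself. Cct8 was at 84.4 FPKM by night, 58.6 by day and 59.3 in the mixed tissues, and has 3 copies. Cct4 was at 82.3 FPKM by night, 66.2 by day and 57.1 in the mixed tissues. Cct2 and Cct5 each differed by less than 5 FPKM between night and day, Cct2 at 77.8 by night against 74.2 by day and Cct5 at 74.6 by night against 72.7 by day. The sum of the family was 384 FPKM by night, 333 by day and 296 in the mixed tissues.

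The only member at least 2-fold lower by night on this scale was Hspa12a, a distant and atypical Hsp70 relative. It was at 3.36 FPKM by night, 9.36 by day and 19.4 in the mixed tissues (chr1:265305145-265373007), with a log2 ratio of -1.25 and an FPKM fold of 0.359 (0.202 to 0.605). With a pseudocount of 5 the ratio was -0.78, within 2-fold. Just outside lay Hspc159, a galectin-related gene that the reference names Lgalsl and that matches by symbol only, at 26.0 FPKM by night, 52.6 by day and 21.9 in the mixed tissues (log2 -0.99). Markers of other cell types were also at lower sums by night: 5 astrocyte markers summed to 88.1 FPKM by night against 119 by day, with 5 of 5 ratios below 0, and 6 fibroblast and meningeal markers to 180.5 by night and 242 by day, with 5 of 6 below 0. Over all genes compared, 6076 of 9826 ratios were below 0. Slc1a2 alone held 58.4 FPKM of the astrocyte sum by night and 72.6 by day, and was at 74.2 in the mixed tissues. The 6 oligodendrocyte markers summed to 16.1 FPKM by night against 30.1 by day. Of these, 3 could be compared and Cnp was at least 2-fold lower by night, while Mog, Mag and Mobp lay below 1 FPKM in both pineal libraries, Mag at 0.137 by night against 0.0635 by day and Mobp listed at 0 by night against 0.123 by day, under the floor of 3 fragments on 1 kb. Their part in the values of Hspa12a and Hspc159 was not tested.

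Several abundant members were lower by night without reaching 2-fold. Dnajc12, a J-domain protein that in human cells binds the aromatic amino acid hydroxylases, among them tryptophan hydroxylase, was at 183 FPKM by night, 299 by day and 14.4 in the mixed tissues (chr20:25729728-25751389). Its log2 ratio of night over day was -0.70 and its FPKM fold 0.612 (0.568 to 0.659). Hspb1, the small heat shock protein Hsp27, was at 139 FPKM by night, 221 by day and 55.8 in the mixed tissues (chr12:21911224-21912784), with a log2 ratio of -0.66. Its window held 2 heat shock elements of 2 units and none of 3. Hspb1 and Hspa1a, both known as heat-inducible, thus lay on opposite sides of the day level. Dnajc7, a J-domain protein that links Hsp70 and Hsp90, was at 36.4 FPKM by night against 54.3 by day (log2 -0.57). Hspb6, or Hsp20, was at 58.4 FPKM by night, 78.8 by day and 79.9 in the mixed tissues (log2 -0.43).

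Summed levels differed between night and day in both directions, depending on the family. The Hsp70 family summed to 388 FPKM by night against 149 by day, Hsp110 to 351 by night and 235 by day, Hsp90 to 283 by night and 202 by day, DnaJ A to 169 by night and 114 by day, and DnaJ B to 373 by night and 223 by day. The DnaJ C family, the most varied, summed to 462 by night and 609.5 by day, and 0 of its 22 members compared were past 2-fold (-0.70 to 0.36). Small heat shock proteins summed to 226 by night and 318 by day, with 0 of 6 past 2-fold. Bag proteins summed to 95.7 by night and 118 by day, with 0 of 5 past 2-fold and 5 of 5 ratios below 0, from -0.52 to just under 0. Of all genes compared, 6076 of 9826 had ratios below 0, and the Bag median of -0.06 lay above the all-gene median of -0.11. At least 2-fold, 4.18% of all genes were higher and 2.11% lower, so counts of 0 in groups of 5 or 6 lie near these shares. Dnajc12, Hspb1 and Hsph1 held most of the difference in their families. Of the Hsp70 sum, Hspa5 held 234 FPKM by night and 77.8 by day, and Hspa1a 71.2 by night and 8.08 by day. Of 9 Hsp70 ratios, 6 were above 0 and 3 below. The Hspa1a and Hspa1b models overlap, so the sum may count shared reads repeatedly, and the level of Hspa8 is uncertain.

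**Figure D4:**
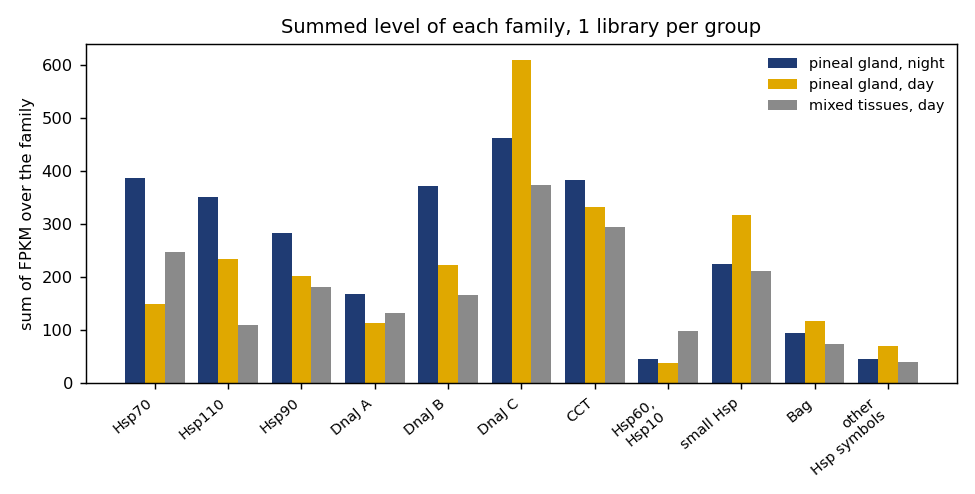
Summed FPKM of each family in the pineal gland by night, by day and in the mixed tissues (linear axis from 0, 1 library per group, no error available). The Hsp70 sum is 388 by night and 149 by day, while the DnaJ C sum is 462 by night and 609.5 by day. Hspa5 alone is at 234 by night and 77.8 by day, and the overlapping models of Hspa1a and Hspa1b both enter the Hsp70 sum.

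Against the mixed tissues, 6 of 77 members (7.79%) reached a level at least 2-fold higher in the day gland, while 14 (18.2%) were lower by that much, whereas of 11934 genes compared 8.32% were higher and 28.9% lower. At 4-fold, 1 member was higher and 4 were lower, against 2.29% and 13.2% of all genes. The median of the members was -0.15 and that of all genes -0.27. Hspa2, Dnajc22, Hspb3, Dnajb13 and Cct6b entered this comparison through their mixed-tissue values alone. With a pseudocount of 5, 5 members were lower, beside 14.6% of all genes. With ratios centred on the median of all genes, 6 were higher and 9 lower, beside 12% and 23.2% of all genes. The day library serves in both comparisons, so a low or high day value enters both ratios. With the same centring the members' median was 0.13, and with FPKM rescaled without the 20 highest genes of each library it was 0.05 while that of all genes was -0.08, so the sign of this median depends on the scaling.

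Dnajc12 had the widest ratio of day gland over mixed tissues among the 77 members compared. Its 299 FPKM by day stood against 14.4 in the mixed tissues, an FPKM fold of 20.8 (17.6 to 24.9) and a log2 ratio of 4.29, rank 31 of 11934. It had the highest listed level among the members in the gland by day, and the night value of 183 FPKM was also far above the mixed tissues. Tph1, the gene of the tryptophan hydroxylase of the pineal gland, was at 4245 FPKM by night, 4665 by day and 0.309 in the mixed tissues. Hspb1 was 3.96-fold (3.60 to 4.36) above the mixed tissues by day in FPKM, Bag1 3.74-fold (3.22 to 4.36), Hspa4 3.32-fold (2.98 to 3.71) and Dnajb2 2.31-fold.

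Bag1, a nucleotide exchange factor of Hsp70, was at 66.8 FPKM by night, 87.0 by day and 23.3 in the mixed tissues. Hspa4, an Hsp110, was at 154 FPKM by night, 153 by day and 46.2 in the mixed tissues, and so differed from its relative Hsph1 in showing a night to day log2 ratio of 0.01. Hspa4l, the remaining Hsp110, was at 35.1 FPKM by night, 28.5 by day and 25.0 in the mixed tissues. Dnajb2, a J-domain protein found mainly in neurons, was at 146 FPKM by night, 111 by day and 48.1 in the mixed tissues. Hspc159 completed the 6, with a log2 ratio of 1.22 for day over mixed tissues. Among co-chaperones outside the membership, Fkbp4, an immunophilin of steroid receptor complexes, was at 211 FPKM by night, 228 by day and 55.7 in the mixed tissues (log2 2.02 for day over mixed).

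**Figure D5:**
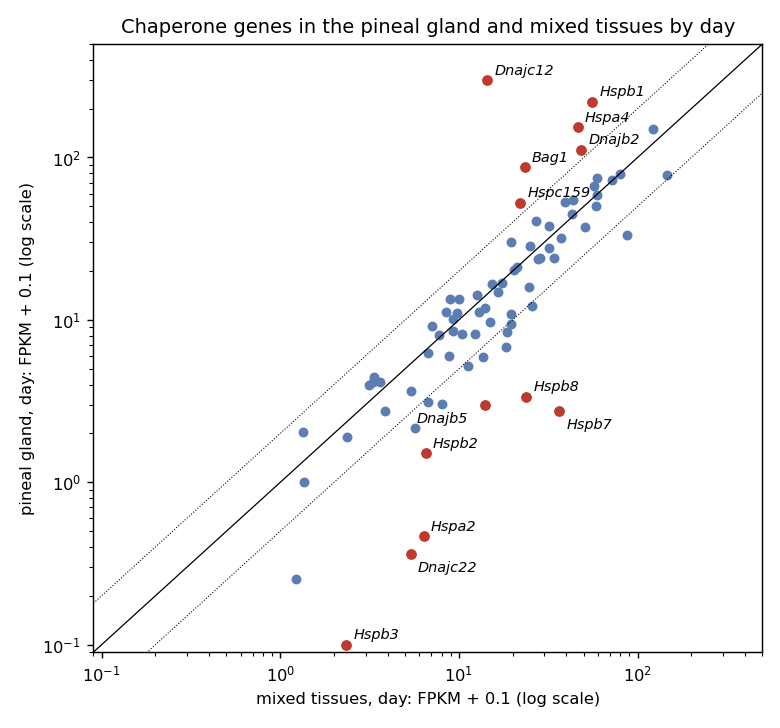
FPKM + 0.1 of the 77 members compared, in the pineal gland by day (vertical, log axis) and in the mixed tissues (horizontal, log axis). The solid line marks equal values and the dotted lines 2-fold on this scale. Calls used FPKM + 1, so some members past a dotted line, such as Hspd1, were not called. Dnajc12 stands at 299 FPKM by day against 14.4, and Hspb7, Hspb8, Hspb2 and Hspb3 lie below the lower line.

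Among the members compared, the lowest ratios of day gland over mixed tissues were those of the small heat shock proteins Hspb7 and Hspb8. Hspb7, known from heart and skeletal muscle, was at 2.01 FPKM by night, 2.64 by day and 36.3 in the mixed tissues (log2 -3.36 for day over mixed). Hspb8, which works with Bag3 in clearing damaged muscle proteins, was at 1.88 FPKM by night, 3.27 by day and 23.7 in the mixed tissues (log2 -2.53). Hspb2 was at 1.13 FPKM by night, 1.41 by day and 6.43 in the mixed tissues (log2 -1.63). Hspb3, also a muscle protein, was at 0.467 FPKM by night, was listed at 0 by day and reached 2.24 in the mixed tissues. It was compared through its mixed-tissue value alone, so its ratio could only lie below 0. Of 7 small heat shock proteins compared, 4 (Hspb3 among them) were thus lower, 1 (Hspb1) higher and 2 (Hspb6 and Hspb11) within 2-fold. Over all genes compared, 28.9% were lower and 8.32% higher, and the count of 4 gives no support by itself. Cryab, a crystallin gene related to the small heat shock proteins but no member by symbol, was at 25.9 FPKM by night, 27.4 by day and 250.5 in the mixed tissues.

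Striated muscle was among the pooled tissues, and its 7 markers summed to 1.75 FPKM by night, 2.40 by day and 3385 in the mixed tissues. Of these, 7 of 7 were lower in the gland by day, and Ckm, Myh2 and Myl2 were listed at 0 there. The part of muscle in the low ratios of the Hspb genes was not tested. Bag3, the partner of Hspb8, was at 8.23 FPKM by night, 8.33 by day and 18.5 in the mixed tissues (log2 -1.07), and Bag4 at 2.92 in both pineal libraries, against 7.91 (log2 -1.18).

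The other members below the mixed tissues came from several families. Hspa2, an Hsp70 known from testis, was at 0.650 FPKM by night, 0.366 by day and 6.26 in the mixed tissues (log2 -2.41). Dnajc22 was listed at 0 by night and was at 0.263 FPKM by day, against 5.27 in the mixed tissues (log2 -2.31). Dnajb5 was at 2.64 FPKM by night, 2.90 by day and 13.9 in the mixed tissues (log2 -1.94). Hspe1, Dnajc27, Hspa12b, Dnajc21 and Dnajc6 made up the rest of the 14, with log2 ratios from -1.37 to -1.02. Dnajc6, the auxilin that uncoats clathrin vesicles, was at 12.4 FPKM by night, 12 by day and 25.4 in the mixed tissues. Dnajc5, the cysteine string protein of synaptic vesicles, was within 2-fold at 27.4 FPKM by night, 31.9 by day and 37.4 in the mixed tissues. Of 8 CCT members compared by day with the mixed tissues, 0 were past 2-fold (-0.25 to 0.56). Over all genes compared, 8.32% were higher and 28.9% lower.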

How the data were processed

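Poly(A) RNA of the 3 libraries was sequenced as paired reads of 51 bases after 15 PCR cycles, per the labels' protocols. FPKM values were computed by the authors, per the file headers; TopHat 1.3.1, Cufflinks 1.2.0 and the build rn4 come from the submitters' processing notes. Neither their options nor the handling of multiply mapped reads is given in the sources used here. Series table and sample files held identical values in 51267 of 51267 cases.

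Entries of 1 symbol were summed (17089 entries, 16629 genes). Log2 ratios used a pseudocount of 1 and genes with at least 1 FPKM in 1 of the 2 libraries compared. Members with under 1 FPKM in every library, with 3 or more named pseudogene copies, or overlapping another member were treated as uncertain. Table starts count from 0 and are printed from 1. Depth was estimated from 1-fragment steps in 1337 single-exon receptor models of 800 to 1100 bases. Bounds of folds are exact (Clopper-Pearson) at 95%, for counting error only. PCR reads without molecular identifiers are not independent molecules. A 3-fragment floor on 1 kb equals 0.567 FPKM by night, 0.343 by day and 0.308 in the mixed tissues.

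The members and lists were chosen with earlier results of these data known. Values in all libraries are given for members at least 2-fold apart between night and day or 4-fold from the mixed tissues, for the 2 most abundant of each family, and for further members where a paragraph describes their family or partners. From each list of other genes, up to 4 with the largest ratios and any past 2-fold may be named; Calr, Canx, Hsf2, Hsbp1, Hmox1, Cryab, Tph1 and the cell type markers were named beside them. Alternatives were other pseudocounts, filters, scalings, thresholds, the highest entry of a symbol, and leaving out uncertain members. The ratio calculation was checked on simulated counts with planted changes in genes of high level and counting error only. That check does not cover low members, the lower depth of the night library or spread between animals. Python 3.11.15, pandas 2.3.3, numpy 2.4.6, scipy 1.17.1 and matplotlib 3.10.9 were used.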

Additional observations from a re-analysis of the deposited data

How the results depend on the processing

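No paired analysis was possible because each group has 1 library. By night, the count of members at least 2-fold higher (9) became 4 without the uncertain members and lay between 6 and 11 under the other alternatives. The share of all genes that were higher (4.18%) lay between 2.35% with a pseudocount of 5 and 8.18% at 1.5-fold. The count lower (1) became 2 with a pseudocount of 0.1, 0 with a pseudocount of 5, 2 when FPKM was rescaled without the 20 highest genes, and 4 at 1.5-fold. The members' median for night over day (0.05) became 0.16 when centred on the median of all genes. Against the mixed tissues, the count lower (14) became 18 with a pseudocount of 0.1, 5 with a pseudocount of 5 and 9 when centred. It became 10 when rescaled and 4 at 4-fold. Over all genes, 28.9% were lower, and 33.2%, 14.6%, 23.2%, 26.1% and 13.2% under these alternatives in that order. The count higher (6) became 1 at 4-fold, beside 8.32% and 2.29% of all genes. The members' median against the mixed tissues (-0.15) became -0.046 with no filter, 0.13 when centred and 0.053 when rescaled. Centring and thresholds change these values by their own construction, and for the others the cause was not tested. Among the ratios of single named members under the alternatives, 0 changed sign. A total of 15 moved beyond the range that spans the printed ratio and the counting bounds of its FPKM fold, and 99 did not. No spread between animals can be given, and members under 1 FPKM rest on few fragments.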
